A study of Homo sapiens with 2 samples.

Results

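Genes for protein folding in the endoplasmic reticulum (ER) and for the unfolded protein response (UPR) were compared between ACHN cells with Kindlin-2 shRNA and ACHN cells with control shRNA. The group was a list of 40 genes fixed by name and chosen with earlier results of these data known. A gene was read from the probe group of the array (transcript cluster) that carried its symbol and no other. Of the 40 genes, 38 had such a cluster, and all 38 were among the 11822 genes kept after a filter on dim values, out of 18417 genes with a symbol of their own. PDIA3 and TXNDC5 were left without a value because their clusters carried several symbols. The filter asked for a log2 value of at least 6.52, the median of the table, on the brighter of the 2 arrays.

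ACHN is an established human renal carcinoma line, which the labels call clear cell. One culture was transfected with an shRNA against Kindlin-2 (FERMT2), an adaptor that binds integrin tails, and the other with a control shRNA. Both were kept under G418, a drug that selects transfected cells, and RNA of each was hybridised to 1 Affymetrix Human Gene 1.0 ST array. Whether the cultures were clones or pools, the time after transfection and the shRNA sequences were not stated in the labels. With 1 array per group no difference has a replicate check, no test could be run, and every value below is a single measurement that describes these 2 arrays. FERMT2 had a log2 value of 8.26 in the Kindlin-2 shRNA array and 9.37 in the control array, which was 2.16-fold lower. Of 5 kidney and epithelial markers, all were lower with Kindlin-2 shRNA, with log2 differences of -0.13 in PAX8, -0.44 in KRT18, -0.54 in KRT8, -0.66 in PAX2 and -0.83 in CDH16, and their part in the results below was not tested. PAX8 was bright on both arrays, at 11.29 with Kindlin-2 shRNA and 11.43 with control shRNA. CDH16 was dimmer, at 6.26 with Kindlin-2 shRNA, under the filter limit, and 7.10 with control shRNA. Among genes of other cells, PTPRC was dim, at 3.54 with Kindlin-2 shRNA and 3.53 with control shRNA. PECAM1, CDH5 and CD3E were also under the limit on both arrays. The collagen genes passed it, COL1A1 at 7.45 with Kindlin-2 shRNA and 7.28 with control shRNA. COL3A1 was at the limit, at 6.52 with Kindlin-2 shRNA and 6.51 with control shRNA. The RNA came from whole cultures, so a higher level in every cell and a change in the share of cells that express a gene cannot be told apart.

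The ER is where secreted and membrane proteins, integrins among them, are folded, glycosylated and joined by disulfide bonds. Chains enter through the Sec61 translocon, are held by chaperones, and are sent back to the cytosol for degradation (ER-associated degradation, ERAD) when folding fails. When unfolded chains accumulate, the membrane sensors ATF6, IRE1 (ERN1) and PERK (EIF2AK3) start the UPR, in which cleaved ATF6 and the protein made from spliced XBP1 mRNA raise the transcription of chaperone and ERAD genes. Many of these genes carry the ER stress response element (ERSE), CCAAT and CCACG separated by 9 bases, or its shorter form ERSE-II, ATTGG and CCACG separated by 1 base. The factor NF-Y is known to bind CCAAT and ATF6 to bind CCACG.

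Members of the group were mostly higher in the Kindlin-2 shRNA array. The lumenal chaperones HYOU1, CALR, HSPA5 and HSP90B1 and the disulfide isomerase PDIA6 differed most, between 1.74-fold and 2.01-fold. The median log2 difference of the 38 members, Kindlin-2 shRNA minus control shRNA, was 0.37, beside -0.02 for all genes kept. Above 0 were 33 members (86.8%), against 46.4% of all genes kept. A difference of at least 1.5-fold upward was found in 8 members (21.1%), against 5.10% of all genes kept. No member was 1.5-fold lower, against 5.23% of all genes kept. At 2-fold, 1 member was higher, HYOU1, beside 1.41% of all genes kept, and none was lower, beside 1.26%. Of the 38 members, 16 lay among the highest 10.0% of differences.

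The threshold of 1.5-fold cut through a run of close values. Just below it lay MANF (1.49-fold), DNAJC3 (1.47-fold), XBP1 (1.47-fold) and SDF2L1 (1.46-fold), and just above it DNAJB11 (1.59-fold), PDIA4 (1.60-fold) and EDEM1 (1.63-fold). At the lower fold of 1.2, 24 members were higher, against 16.6% of all genes kept. The medians were set side by side at 3 levels of brightness that held equal numbers of the genes kept. At the dim level the 9 members had a median of 0.20, against -0.02 for all genes of that level. DERL3 and ERO1B, which passed the filter only through the Kindlin-2 shRNA array, are among these 9, and the other 7 had a median of 0.13. At the middle level the 7 members had 0.56, against -0.05 for all genes. At the bright level the 22 members had 0.35, against 0.00262 for all genes.

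**Figure D1:**
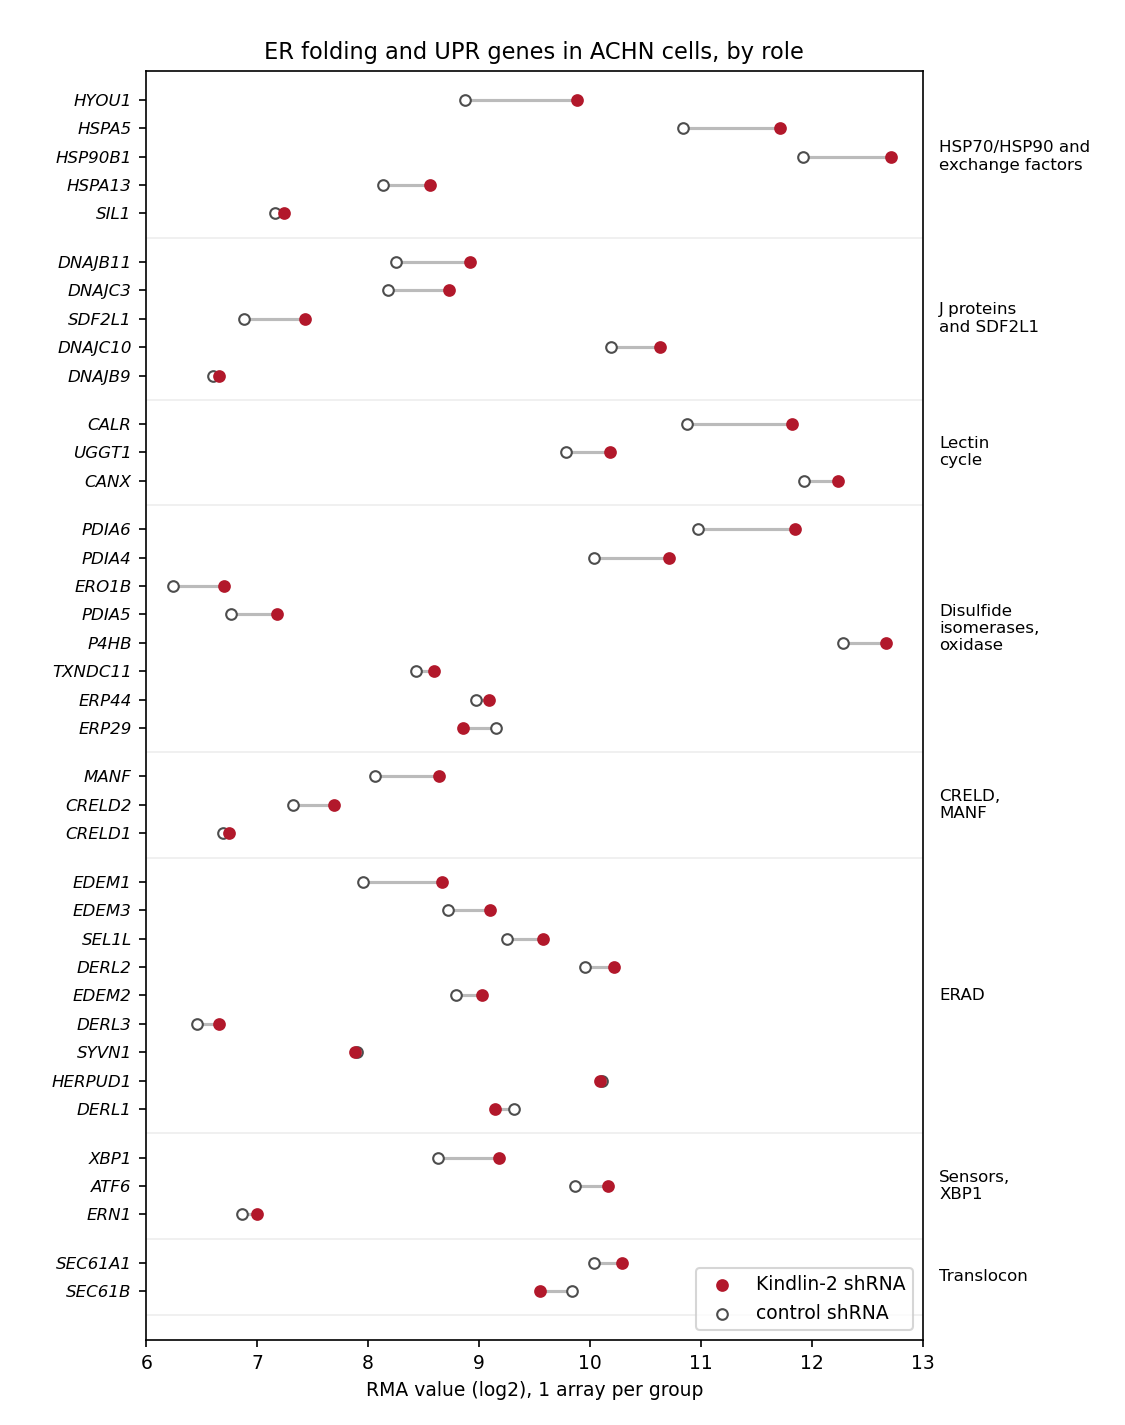
Log2 RMA values of the 38 measured members, by role and ordered by difference within a role, with 1 filled point for the Kindlin-2 shRNA array and 1 open point for the control array. The filled point lies to the right in 33 members and the distance is longest in HYOU1 (1.01).

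The HSP70 and HSP90 chaperones of the ER lumen and the factors that exchange their nucleotide had the highest median of the 8 roles, 0.80 over 5 genes, all of them above 0. HSPA5 encodes BiP, the HSP70 of the ER, which holds unfolded chains and keeps the UPR sensors inactive. Its log2 value (transcript cluster 8164165) was 11.71 in the Kindlin-2 shRNA array and 10.84 in the control array, or 1.83-fold higher, and 246 of the 11822 genes kept had a larger difference. HSP90B1 encodes GRP94, the HSP90 of the ER, known for folding integrins and Toll-like receptors. Its value (cluster 7958130) was 12.72 with Kindlin-2 shRNA and 11.92 with control shRNA, or 1.74-fold higher. HYOU1 encodes GRP170, a large HSP70 relative that exchanges the nucleotide of BiP. It had 9.88 in the Kindlin-2 shRNA array and 8.87 in the control array (cluster 7952145), 2.01-fold higher and the largest difference of the 38 members. These 3 genes made up the members of this role past 1.5-fold.

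The promoter windows of these 3 genes are shown because each held an exact ERSE or ERSE-II. The windows are those of RefSeq on GRCh38.p14, 250 bases before to 50 bases after the annotated start, written in the direction of transcription. Capitals mark the fixed letters of the elements. An element on the opposite strand reads CGTGG followed by ATTGG for ERSE and CGTGG followed by CCAAT for ERSE-II.
HSPA5 promoter window, chr9:125241294-125241593, minus strand: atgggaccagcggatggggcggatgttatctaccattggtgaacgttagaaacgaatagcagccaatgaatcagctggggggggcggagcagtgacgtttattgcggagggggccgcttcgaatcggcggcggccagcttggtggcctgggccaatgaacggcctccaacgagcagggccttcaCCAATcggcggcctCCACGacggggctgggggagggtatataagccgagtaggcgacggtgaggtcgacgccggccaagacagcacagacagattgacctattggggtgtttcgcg
HSP90B1 promoter window, chr12:103930160-103930459, plus strand: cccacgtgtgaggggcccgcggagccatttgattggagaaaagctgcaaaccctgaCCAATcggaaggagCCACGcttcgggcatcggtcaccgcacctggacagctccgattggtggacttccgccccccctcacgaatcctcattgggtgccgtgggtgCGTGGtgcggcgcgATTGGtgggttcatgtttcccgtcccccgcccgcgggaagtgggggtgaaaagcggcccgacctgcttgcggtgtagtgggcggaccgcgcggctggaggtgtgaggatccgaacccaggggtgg
HYOU1 promoter window, chr11:119057156-119057455, minus strand: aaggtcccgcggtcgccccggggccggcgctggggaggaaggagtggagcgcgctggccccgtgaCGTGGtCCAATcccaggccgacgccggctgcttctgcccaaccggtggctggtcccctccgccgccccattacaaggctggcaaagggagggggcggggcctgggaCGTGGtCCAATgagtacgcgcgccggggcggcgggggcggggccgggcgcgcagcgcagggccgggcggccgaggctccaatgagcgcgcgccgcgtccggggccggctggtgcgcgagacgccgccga
In HSPA5 the element lay at -66 to -48 from the start. HSP90B1 held an ERSE from -194 to -176 and another on the opposite strand from -89 to -71. HYOU1 held an ERSE-II on the opposite strand at -185 to -175 and again at -79 to -69, and the first of them overlapped a TGACGTG.

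The other genes of this role differed less. HSPA13, an HSP70-like ATPase of microsomes, had 8.56 with Kindlin-2 shRNA and 8.14 with control shRNA, 1.34-fold higher. SIL1, the other nucleotide exchange factor of BiP, had 7.24 with Kindlin-2 shRNA and 7.16 with control shRNA, a difference of 0.09. Of the pair of exchange factors, HYOU1 was thus past 2-fold and SIL1 near 0.

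J proteins bring unfolded clients to BiP and trigger its ATPase. Their role, with SDF2L1, a partner of DNAJB11, had a median of 0.54, and all 5 genes were above 0. DNAJB11 (ERdj3) had 8.92 in the Kindlin-2 shRNA array and 8.26 in the control array, 1.59-fold higher. DNAJC3 (p58IPK), also known as a PERK inhibitor, had 8.73 with Kindlin-2 shRNA and 8.18 with control shRNA. SDF2L1 had 7.43 with Kindlin-2 shRNA and 6.89 with control shRNA. DNAJB11 alone passed 1.5-fold, with DNAJC3 and SDF2L1 close below. DNAJC10 (ERdj5), a J protein that reduces disulfides of ERAD clients, had 10.63 with Kindlin-2 shRNA and 10.20 with control shRNA, 1.35-fold higher. DNAJB9 (ERdj4), known for returning IRE1 to its inactive state, had 6.66 with Kindlin-2 shRNA and 6.60 with control shRNA, a difference of 0.06 on values near the filter limit. The SDF2L1 window is shown for its single ERSE-II, at -188 to -178 on the opposite strand.
SDF2L1 promoter window, chr22:21642052-21642351, plus strand: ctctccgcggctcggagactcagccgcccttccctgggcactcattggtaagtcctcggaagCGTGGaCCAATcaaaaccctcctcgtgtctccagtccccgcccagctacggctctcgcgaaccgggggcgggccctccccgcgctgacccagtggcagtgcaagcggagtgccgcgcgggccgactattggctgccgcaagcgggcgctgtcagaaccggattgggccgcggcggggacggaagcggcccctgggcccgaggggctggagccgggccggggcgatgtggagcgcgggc

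The lectin cycle holds glycoproteins until they are folded. Calreticulin (CALR), its soluble lectin and a calcium-binding protein of the ER, had 11.82 in the Kindlin-2 shRNA array and 10.88 in the control array (cluster 8026106). It was 1.93-fold higher and second among the members. Calnexin (CANX), the membrane-bound lectin, had 12.24 with Kindlin-2 shRNA and 11.93 with control shRNA, 1.23-fold higher. UGGT1, the glucosyltransferase that marks unfolded glycoproteins for another round, had 10.19 with Kindlin-2 shRNA and 9.79 with control shRNA, 1.32-fold higher. The soluble lectin thus differed by 0.95 on the log2 scale and the membrane-bound one by 0.30. The CALR window is shown because its ERSE lay farther from the start than that of HSPA5, at -225 to -207 on the opposite strand.
CALR promoter window, chr19:12938359-12938658, plus strand: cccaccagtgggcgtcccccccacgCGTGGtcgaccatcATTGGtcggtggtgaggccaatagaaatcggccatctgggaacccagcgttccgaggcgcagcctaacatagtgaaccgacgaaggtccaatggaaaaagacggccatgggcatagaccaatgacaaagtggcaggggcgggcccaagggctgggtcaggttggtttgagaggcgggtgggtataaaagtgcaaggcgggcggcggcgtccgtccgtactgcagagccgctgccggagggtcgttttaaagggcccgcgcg

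Disulfide isomerases form and rearrange disulfide bonds, and the oxidase ERO1B recharges them. The 8 measured genes of this role had a median of 0.40, and 7 of them were above 0. PDIA6 (P5), a BiP partner, had 11.85 with Kindlin-2 shRNA and 10.97 with control shRNA (cluster 8050278), 1.84-fold higher. PDIA4 (ERp72) had 10.71 with Kindlin-2 shRNA and 10.03 with control shRNA, 1.60-fold higher. Those were the isomerases past 1.5-fold. P4HB, the classical protein disulfide isomerase and a subunit of collagen prolyl 4-hydroxylase, had 12.67 with Kindlin-2 shRNA and 12.29 with control shRNA. Its second cluster had 11.91 with Kindlin-2 shRNA and 11.46 with control shRNA, so that the clusters differed by 0.38 and 0.45 in the same direction. PDIA5 was 1.34-fold higher. ERO1B was 1.38-fold higher, with 6.70 in the Kindlin-2 shRNA array and 6.24, under the filter limit, in the control array. TXNDC11 differed by 0.16, and ERP44, which retrieves ERO1 from the Golgi, by 0.12. ERP29, a relative that lacks the redox-active cysteines, was the lowest of the 38 members, with 8.86 in the Kindlin-2 shRNA array and 9.15 in the control array, 1.22-fold lower. The PDIA6 window carried an ERSE at -86 to -68.
PDIA6 promoter window, chr2:10812736-10813035, minus strand: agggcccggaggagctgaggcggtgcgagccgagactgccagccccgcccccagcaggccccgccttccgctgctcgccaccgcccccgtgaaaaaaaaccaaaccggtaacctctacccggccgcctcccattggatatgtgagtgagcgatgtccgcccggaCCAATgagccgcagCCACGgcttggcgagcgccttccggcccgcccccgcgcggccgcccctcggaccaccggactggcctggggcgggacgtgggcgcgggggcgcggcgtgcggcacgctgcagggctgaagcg

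MANF and CRELD2 are soluble ER proteins that can be secreted under ER stress. MANF had 8.64 with Kindlin-2 shRNA and 8.06 with control shRNA, a difference of 0.58. CRELD2 had 7.69 with Kindlin-2 shRNA and 7.33 with control shRNA, a difference of 0.37. CRELD1, the membrane-anchored relative of CRELD2, had 6.74 with Kindlin-2 shRNA and 6.69 with control shRNA, a difference of 0.05. None of the 3 passed 1.5-fold.

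ERAD genes had a lower median than the chaperones, 0.24 over 9 genes, of which 6 were above 0 and 3 below. Only EDEM1, a mannosidase-like protein that hands misfolded glycoproteins to ERAD, passed 1.5-fold, with 8.66 in the Kindlin-2 shRNA array and 7.95 in the control array (1.63-fold higher). Its relatives EDEM3 (1.30-fold) and EDEM2 (1.18-fold) were higher by less. SEL1L, the adaptor of the ubiquitin ligase HRD1, had 9.58 with Kindlin-2 shRNA and 9.25 with control shRNA, 1.25-fold higher. SYVN1, which encodes HRD1 itself, had 7.88 with Kindlin-2 shRNA and 7.90 with control shRNA. HERPUD1, a membrane protein of the HRD1 complex and a known UPR target, had 10.09 with Kindlin-2 shRNA and 10.11 with control shRNA. SYVN1 and HERPUD1 each differed by -0.02, level with the median of all genes kept. Among the derlins, membrane proteins of the export channel, DERL2 was 1.20-fold and DERL3 1.15-fold higher, DERL3 with a control value of 6.45 under the filter limit, and DERL1 was 1.13-fold lower. The HERPUD1 window is shown as a contrast, because it held an exact ERSE-II, at -117 to -107, beside a difference near 0.
HERPUD1 promoter window, chr16:56931892-56932191, plus strand: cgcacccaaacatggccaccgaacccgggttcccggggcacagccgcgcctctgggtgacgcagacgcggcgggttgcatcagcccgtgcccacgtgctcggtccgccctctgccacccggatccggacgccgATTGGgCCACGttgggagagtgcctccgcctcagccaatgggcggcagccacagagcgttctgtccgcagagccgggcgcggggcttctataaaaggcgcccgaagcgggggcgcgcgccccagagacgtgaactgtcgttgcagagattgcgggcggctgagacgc

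Of the UPR regulators, XBP1 differed most. XBP1, the transcription factor whose mRNA IRE1 splices, had 9.18 in the Kindlin-2 shRNA array and 8.63 in the control array, 1.47-fold higher. The table gives 1 value for the gene, so spliced and unspliced XBP1 mRNA were not separated. ATF6 had 10.16 with Kindlin-2 shRNA and 9.86 with control shRNA, a difference of 0.30, and ERN1 had 7.0 with Kindlin-2 shRNA and 6.86 with control shRNA, a difference of 0.13. None of the 3 passed 1.5-fold, and the activity of the sensors, which depends on cleavage and phosphorylation of proteins, was not measured. The XBP1 window carried an ERSE close to the start, at -52 to -34.
XBP1 promoter window, chr22:28800520-28800819, minus strand: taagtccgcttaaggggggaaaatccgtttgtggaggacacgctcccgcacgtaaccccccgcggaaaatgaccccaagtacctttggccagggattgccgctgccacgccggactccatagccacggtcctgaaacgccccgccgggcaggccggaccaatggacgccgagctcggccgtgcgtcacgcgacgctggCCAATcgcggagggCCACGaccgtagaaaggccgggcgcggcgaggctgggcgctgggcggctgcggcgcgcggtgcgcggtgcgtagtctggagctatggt

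The translocon subunits differed in opposite directions as measured, but both were above 0 (SEC61B at 0.05) once the median of the 50 nearest genes was subtracted. SEC61A1, the channel itself, had 10.29 with Kindlin-2 shRNA and 10.04 with control shRNA, 1.19-fold higher, and SEC61B, a small subunit beside it, had 9.55 with Kindlin-2 shRNA and 9.84 with control shRNA, 1.22-fold lower.

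Some of these values shifted when the position of the genes was taken into account. The median over all genes kept was -0.31 on chromosome 9, -0.22 on chromosome 7, -0.21 on chromosome 12 and 0.26 on chromosome 20. HSPA5 lies on chromosome 9, HSP90B1 on chromosome 12 and PDIA4 on chromosome 7, so that these 3 were higher against the run of their chromosomes. With the median of the 50 nearest genes kept on the same chromosome subtracted, HSPA5 differed by 1.18, HSP90B1 by 1.02 and PDIA4 by 0.88. HYOU1 was then at 0.99, just under 2-fold, whereas HSPA5, HSP90B1 and CALR (1.07) were over it. The lowest members moved toward 0. ERP29, on chromosome 12, was then at -0.07, and SEC61B, on chromosome 9, was just above 0. EDEM2 on chromosome 20 was at 0.03 in place of 0.24, and ERP44 on chromosome 9 at 0.46 in place of 0.12. After this subtraction the median of the 38 members was 0.37, 35 were above 0, against 50.3% of the genes with such neighbours, and 10 were at least 1.5-fold higher, against 4.71%. MANF, SDF2L1 and XBP1 then passed 1.5-fold and DNAJB11 no longer did. The 38 members lay on 17 chromosomes.

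**Figure D2:**
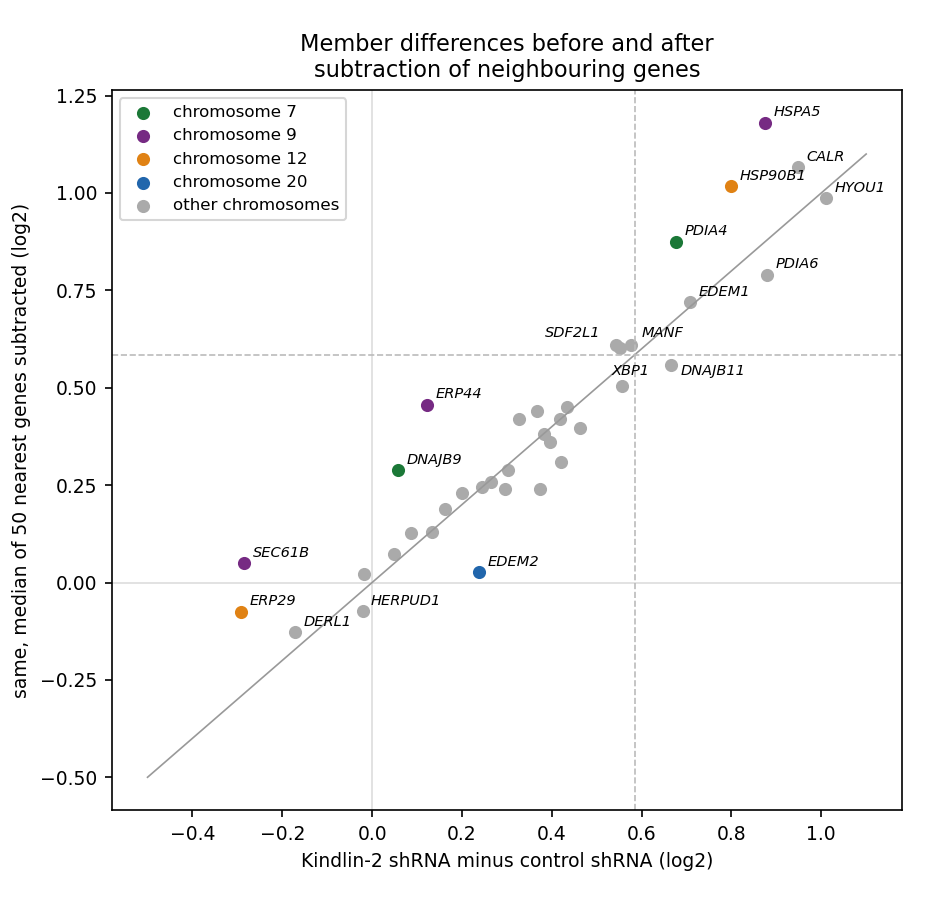
Log2 difference of each of the 38 members, Kindlin-2 shRNA minus control shRNA (horizontal axis), against the same difference with the median of its 50 nearest genes subtracted (vertical axis), with 1 point per gene and dashed lines at 1.5-fold. Members on chromosomes 7, 9 and 12 lie above the diagonal, HSPA5 at 1.18 after subtraction, and EDEM2 on chromosome 20 lies below it.

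The promoter elements were then compared over the group. A RefSeq window was found for 37 of the 40 genes, and not for PDIA3, DERL1 and DERL3. Exact ERSE letters (CCAAT, any 9 bases, CCACG, on either strand) were present in windows of 8 members, 21.6%, against 27 of all 35116 windows, 0.0769%, and 0.0916% of all genes with a window. ERSE-II letters (ATTGG, any base, CCACG, on either strand) were present in 3 members, 8.11%, against 19 windows, 0.0541%, and 0.0696% of genes. Together they were found in 11 members, which are 29.7% of the members with a window and 25% of the 44 genes with either element, while 0.161% of all 27305 genes with a window had one. The list holds known UPR genes, the class in which these elements were described, so the share describes the list. The 11 genes carried the elements below, each written so that it reads CCAAT or ATTGG first, with the fixed letters in capitals and the spacer in lower case.
HSPA5: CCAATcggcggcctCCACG
HSP90B1: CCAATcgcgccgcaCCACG
HSP90B1: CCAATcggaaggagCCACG
CALR: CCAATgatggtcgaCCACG
CANX: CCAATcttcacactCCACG
PDIA6: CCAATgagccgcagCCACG
ERO1B: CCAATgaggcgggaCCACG
CRELD2: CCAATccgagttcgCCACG
XBP1: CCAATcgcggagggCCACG
HYOU1: ATTGGaCCACG
SDF2L1: ATTGGtCCACG
HERPUD1: ATTGGgCCACG
The element of HYOU1 occurred at both of its positions with the same letters, and that of CANX was counted once although it lay in 3 overlapping windows of alternative starts.

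The 11 members with an exact element had a median log2 difference of 0.55, with 10 above 0 and 5 at least 1.5-fold higher. ERO1B, among these 10, passed the filter only through the Kindlin-2 shRNA array. The other 25 measured members with a window had a median of 0.30, with 22 above 0 and 3 at least 1.5-fold higher. Of all genes kept, 46.4% were above 0 and 5.10% at least 1.5-fold higher. The 5 members with the largest differences, HYOU1, CALR, PDIA6, HSPA5 and HSP90B1, were all among the 11. The list was chosen with earlier results of these data known, so this overlap is not independent of these 2 arrays. The ranges overlapped: HERPUD1 with an element was at -0.02 and EDEM1 without one at 0.71. Genes share these 2 arrays and are not replicates, so no test was made. Each part of the element was common by itself. CCAAT was present in 75.7% of members and 34.6% of all windows, and CCACG in 73% of members and 38.1% of all windows. A gene can have several windows, and by gene CCAAT was present in 39.7% and CCACG in 42.1% of all genes with a window. With 1 mismatch allowed in the 10 fixed letters, 40.5% of members, 1.55% of all windows and 1.89% of all genes held an ERSE. The core of the UPR element that XBP1 binds, TGACGTG on either strand, was present in HYOU1, DNAJC10, TXNDC5, TXNDC11 and SEC61A1, 13.5% of members, against 1.97% of all windows and 2.4% of all genes. The 4 of these with a value had a median difference of 0.34. An element outside these windows would have been missed, and a match of letters is not a bound site.

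**Figure D3:**
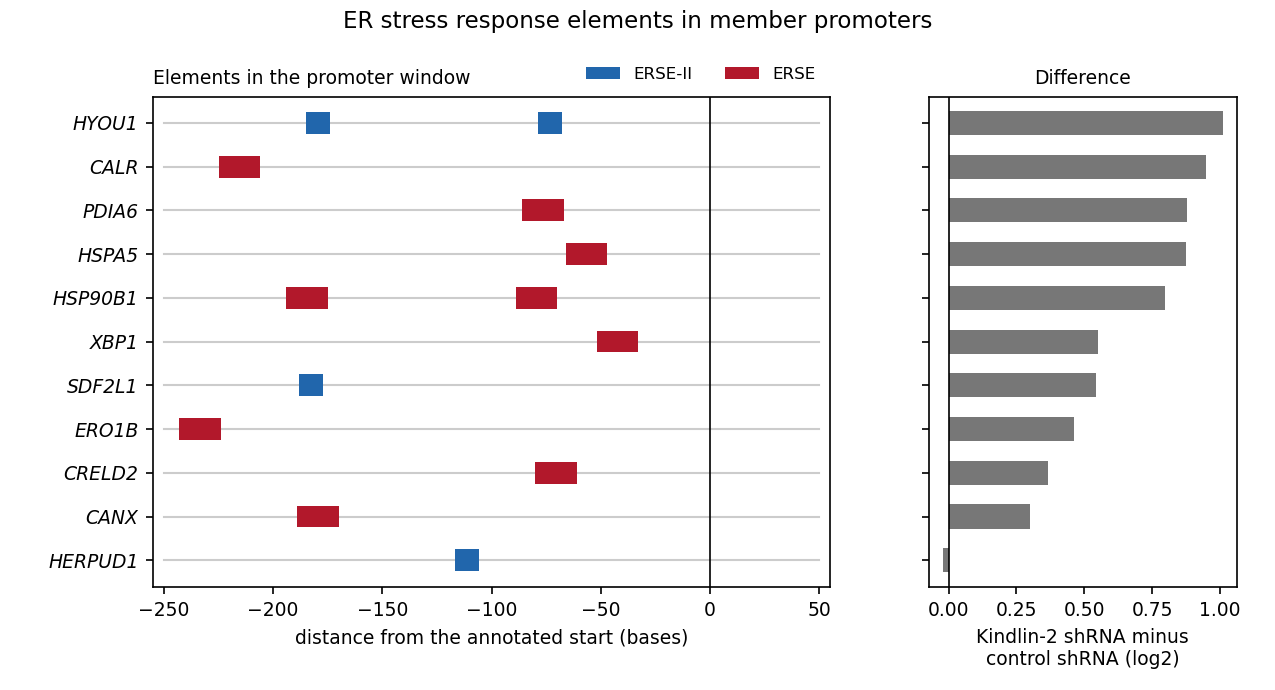
Left, position of exact ERSE (red) and ERSE-II (blue) matches in the promoter windows of 11 members, in bases from the annotated start. Right, bars give the log2 difference of the same gene, Kindlin-2 shRNA minus control shRNA, from 1.01 in HYOU1 to -0.02 in HERPUD1.

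Outside the list, genes with an element showed no common direction. Of the genes kept outside the list, 18 had an exact ERSE or ERSE-II, with a median difference of 0.05, 9 above 0 and 2 at least 1.5-fold higher. Of all genes kept, 46.4% were above 0 and 5.10% at least 1.5-fold higher. GLRA2, among these 2, passed the filter only through the Kindlin-2 shRNA array. The 18 include ER genes. SERP1, which stabilises membrane proteins at the translocon, differed by 0.22. FICD, which modifies BiP, differed by 0.14, and NUCB1, a calcium-binding Golgi protein, by -0.01. Some windows were shared by neighbouring genes read in opposite directions: CRELD2 (0.37) shared its window in part with ALG12 (-0.07), a mannosyltransferase of N-glycan assembly.

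The rest of the ER machinery was read from 7 further lists, which held 194 genes kept. Together they had a median of 0.07, with 109 genes (56.2%) above 0, against 46.4% of all genes kept. Past 1.5-fold upward were 13 (6.70%), against 5.10% of all genes kept, and downward 3 (1.55%), against 5.23%. The list that joins other disulfide, J, prolyl isomerase and client-specific factors had a median of 0.01 over 41 genes. Of these, 3 (7.32%) were past 1.5-fold upward and 1 (2.44%) downward. UGGT2, the relative of UGGT1, was 1.62-fold and the sulfhydryl oxidase QSOX1 1.51-fold higher (0.46 on the log2 scale and no longer past 1.5-fold with its neighbours subtracted), and the prolyl isomerase FKBP7 was 1.82-fold lower. POFUT1, which adds fucose to Notch-type repeats rather than folding chains at large, was 1.95-fold higher, or 0.70 on the log2 scale once its neighbours on chromosome 20 were subtracted.

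Translocon, signal peptidase and signal recognition genes had a median of 0.15 over 26 genes, with 18 above 0. SSR3, a subunit of the translocon-associated complex, was 1.75-fold higher and SEC11C, a signal peptidase subunit, 1.65-fold. These 2 were 7.69% of the list, against 5.10% of all genes kept, and none was 1.5-fold lower, against 5.23%. N-glycan transfer and trimming had a median of -0.03 over 33 genes, of which 6.06% were at least 1.5-fold higher. The oligosaccharyltransferase subunit RPN2 was 1.94-fold and the dolichol-phosphate mannose synthase DPM1 1.83-fold higher, both on chromosome 20, and RPN2 differed by 0.69 and DPM1 by 0.54 with neighbours subtracted, which left DPM1 under 1.5-fold. Other ERAD genes had a median of 0.02 over 41 genes, of which 4.88% were at least 1.5-fold higher. The deglycosylase NGLY1 was 1.68-fold and ERLIN2, known for the degradation of IP3 receptors, 1.54-fold higher. With neighbours subtracted ERLIN2 differed by 0.53 and was no longer past 1.5-fold. Retrieval receptors and calcium-binding proteins of the ER had a median of 0.09 over 17 genes, with calumenin (CALU, 5.88% of the list) 1.63-fold higher.

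The regulators outside the list were read as sensors and as effectors. Other sensors, their proteases and ER-membrane transcription factors had a median of 0.06 over 21 genes, and none passed 1.5-fold in either direction. Effectors of the PERK and ATF4 branch had a median of 0.19 over 15 genes, with 12 above 0 (80%), 3 (20%) past 1.5-fold upward and 2 (13.3%) past it downward, against 5.10% and 5.23% of all genes kept. The secreted glycoprotein STC2 was 4.13-fold, the cystine transporter SLC7A11 2.78-fold and the phosphatase subunit PPP1R15A 1.57-fold higher, while the stress protein NUPR1 was 2.94-fold and the lipoprotein receptor VLDLR 1.61-fold lower. VLDLR lies on chromosome 9 and differed by -0.31 with neighbours subtracted, no longer past 1.5-fold. Every one of the 7 lists had a median below the 0.37 of the 38 members. Members and lists were chosen with earlier results of these data known, so this order is not independent of these 2 arrays.

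**Figure D4:**
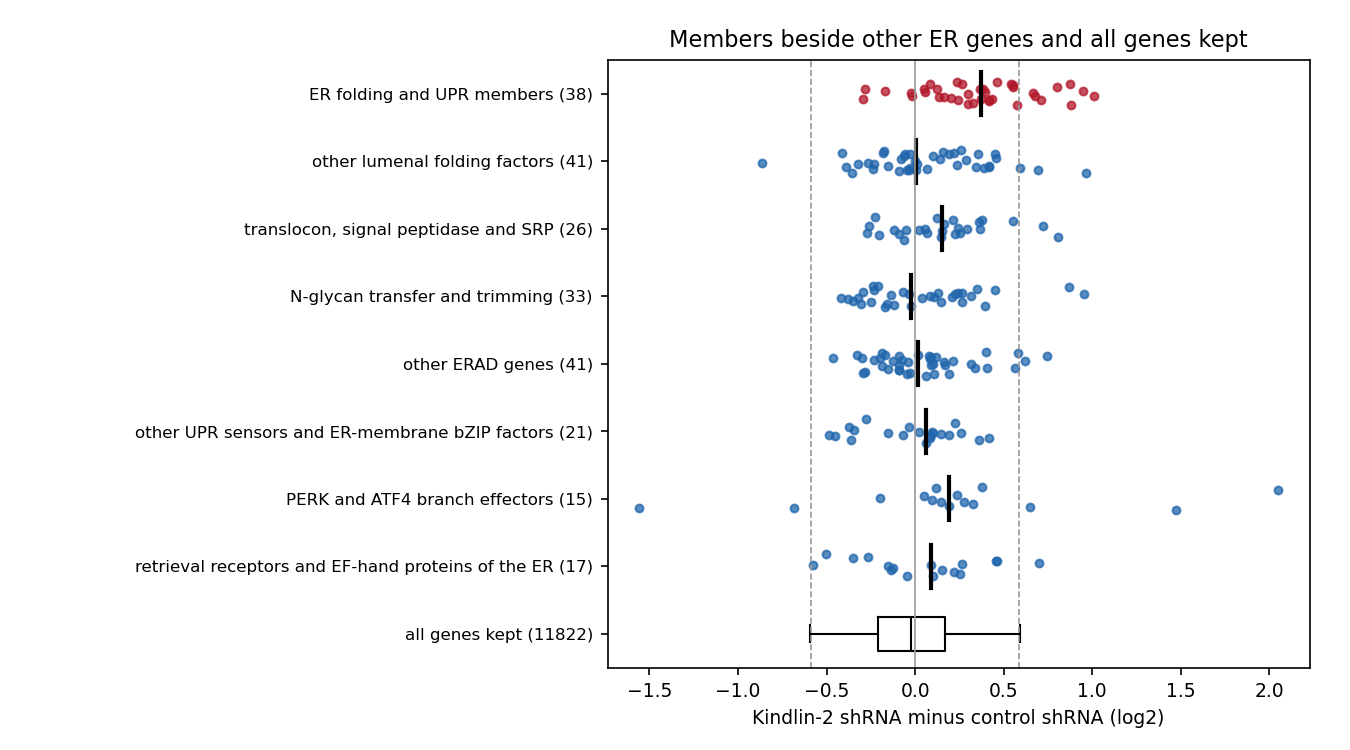
Log2 differences, Kindlin-2 shRNA minus control shRNA, of the 38 members (red) and of 7 further lists of ER genes (blue), with 1 point per gene, a black bar at the median and the number of genes in brackets; the box at the bottom gives the quartiles and median of all 11822 genes kept, with whiskers from the lowest to the highest 5%, and dashed lines mark 1.5-fold. The members have a median of 0.37 and none lies left of the lower dashed line.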

How the data were processed

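Arrays of 1 Kindlin-2 shRNA and 1 control shRNA culture of ACHN cells were compared. Per the submitters' processing notes, the authors processed them with RMA in Affymetrix Expression Console 1.4.1, which corrects background, normalises between arrays and summarises probes. The deposited values were taken as log2 from their range of 2.13 to 14.04 over 33297 transcript clusters. Library file and build: not given in the sources used here. RMA shrinks differences between dim values, and there were no detection calls. The number of arrays limits the precision.

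Symbols came from GEO's platform annotation, updated through Entrez IDs to RefSeq (GRCh38.p14) for 19429 of 19460 clusters with a single symbol. The cluster with the highest mean stood for a gene. The difference was Kindlin-2 shRNA minus control shRNA, and counts used 1.5-fold and 2-fold. Calculations used Python 3.11.15 with pandas 2.3.3, and counting and motif search were tested on simulated data. Every member was named, and of each further list up to 3 genes per direction past 1.5-fold. SERP1, FICD, NUCB1 and ALG12 were named after their values were seen. Members and lists were chosen with earlier results of these data known. Alternatives covered the filter, normalisation, clusters per gene, chromosome position and threshold. Promoter windows were RefSeq's.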

Additional observations from a re-analysis of the deposited data

How the results depend on the processing

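The median difference of the members stayed between 0.35 and 0.39 under all alternatives run, over all 38 members except with the filter at 7, which left 33. They were a filter at a log2 value of 5, at 7 or none, a repeated quantile normalisation, a loess or median correction, averaging of clusters that share a gene, a list mean instead of its median, and subtraction of the median of the chromosome or of the 50 nearest genes. The median of all genes under the same alternatives lay between -0.03 and 0.00212. The count of members at least 1.5-fold higher lay between 8 and 10, against 3.77% to 5.52% of all genes. The count at least 1.5-fold lower was 0 throughout, against 3.81% to 5.48% of all genes. At 2-fold in place of 1.5-fold, 1 member was higher, against 1.41% of all genes kept, and none was lower, against 1.26%. The 3 other normalisations each added MANF (the cause was not tested), and subtraction of chromosome medians added SDF2L1 and XBP1. Under subtraction of neighbouring genes 7 of the 8 members past 1.5-fold remained. Single members moved by more than 0.1 on the log2 scale only under the 2 position settings, 8 under the chromosome median and 12 under the nearest genes. No member past 1.5-fold changed sign. No paired analysis was possible because each group held 1 array, and for the same reason no array could be left out. Signal over background could not be judged without detection calls, which limits DERL3, ERO1B, DNAJB9 and CRELD1 most.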

Other observations

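Genes outside the list that carry an exact ERSE or ERSE-II held values with no shared direction. The highest were the glycine receptor subunit GLRA2, with 6.93 in the Kindlin-2 shRNA array and 5.31 in the control array, and SHCBP1, a protein of dividing cells, with 9.10 with Kindlin-2 shRNA and 8.22 with control shRNA. The control value of GLRA2 lies under the filter limit, so GLRA2 was kept only through the Kindlin-2 shRNA array. The lowest were TMEM120A, at 7.49 with Kindlin-2 shRNA and 7.90 with control shRNA, and the restriction factor TRIM5, at 8.75 with Kindlin-2 shRNA and 9.12 with control shRNA. EIF2A, whose window overlaps that of SERP1 on the opposite strand, differed by 0.38 and SERP1 by 0.22. These genes were named after their values were seen.

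Genes outside the list with a TGACGTG in their window numbered 317 among the genes kept. Their median difference was 0.00225, with 18 past 1.5-fold upward and 21 past it downward. Of all genes kept, 5.10% were past 1.5-fold upward and 5.23% downward.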
